A study of Homo sapiens with 12 samples.

Results

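The 47 genes described here encode the machinery that takes a cell into mitosis, pulls its chromosomes apart and divides it: cyclins and CDK1, mitotic kinases, spindle checkpoint proteins, partners of the anaphase-promoting complex, spindle and midbody proteins, and transcription factors of mitotic genes. They were chosen by name as a functional group, with earlier results of these data known, so their counts below are descriptions. All 47 were found among the 60987 rows of the deposited gene table. The RNA came from HCT116, a human line established from a colorectal carcinoma, sequenced in a study of cysteine metabolism in colorectal cancer. The 12 samples formed 4 groups of 3. The deprived cells were washed and given DMEM with 0 mM cystine, 10% fetal bovine serum and antibiotics for 24 h or 48 h, and the control cells stayed in full DMEM with 10% serum and antibiotics for 24 h or 48 h. Cystine, the oxidised dimer of cysteine, is the form in which cultured cells take up most of their cysteine. All 4 groups carried the wild-type genotype label, and all came from the same line. The labels give the wash and the new medium for the deprived cells only, so an effect of the wash and an effect of the missing cystine cannot be told apart. Nothing in the labels tells whether the 3 samples of a group were grown separately, so each p-value reflects variation among these samples that could be technical.

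Most of these genes are transcribed periodically, with transcripts that build up in G2 phase and mitosis and fall when cells leave the cycle. In human cells their promoters are held silent by the DREAM complex, which contains the MuvB core, and are switched on when MuvB binds B-MYB and then FOXM1. CDK1 with cyclin B drives entry into mitosis, the spindle assembly checkpoint delays anaphase until every chromosome is attached, and the anaphase-promoting complex then marks securin and cyclin B for destruction. Transcript levels in a bulk sample average over all cells, so fewer cells in G2 or mitosis and less mitotic RNA per cell cannot be told apart in these data.

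Library totals lay between 19146108 and 24179533 estimated counts. On the first principal component (60.53% of the variance) the 6 deprived samples lay apart from the 6 control samples. No sample stood apart from its group on that component. Mitochondrial transcripts held 6.34 to 6.76% of counts in deprived and 6.69 to 7.24% in control cells at 24 h, and 7.51 to 8.08% in deprived and 8.52 to 8.55% in control cells at 48 h. The summed level of 8 colon epithelial line markers was 5274 to 5428 CPM (counts scaled to a common library size) in deprived and 3972 to 4396 CPM in control cells at 24 h, and 5017 to 5602 CPM in deprived and 4347 to 4805 CPM in control cells at 48 h. The lowest of them was VIL1, at about 1 CPM. Of 11 markers of fibroblasts, leukocytes and endothelium, 4 were tested, PTPRC and CD3E were at 0 in the 12 samples, and the summed level of the 11 was 28.3 to 33.1 CPM in deprived and 38.1 to 40.1 CPM in control cells at 24 h, and 45.17 to 47.05 CPM in deprived and 56.5 to 61.5 CPM in control cells at 48 h. The part of these differences in the results below was not tested.

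The promoters of the mitotic genes share short sequence elements that the choice of genes did not use. The CHR element is the site that MuvB contacts, and CCAAT is the box bound by NF-Y. For CHR only the core letters TTTGAA and TTCGAA were used. Other spellings of the element were not searched, so a window without these letters is not shown to lack it. RefSeq windows on GRCh38.p14, running from 250 bases before to 50 bases after the annotated start, were at hand for 36 of the 47 genes and were searched for these letters on both strands. The other 11 genes were BIRC5, PBK, PIMREG, UBE2C, RACGAP1, TTK, AURKA, TPX2, FOXM1, CDCA2 and BUB3. The CHR letters were in 25 of the 36 windows (69.4%), against 13.5% of 15843 windows of protein-coding genes. CCAAT was in 30 (83.3%), against 36.4%. Both were in 23 (63.9%), against 5.57%. A list of G1/S and DNA replication genes, which are transcribed earlier in the cycle, had the CHR letters in 2 of 20 windows (10%) and CCAAT in 12 (60%). At least a pair of CCAAT boxes was in 50% of the windows of the mitotic genes, 40% of those of the G1/S list and 12.5% of those of protein-coding genes. A match describes the letters of these windows and nothing about binding.

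The 150 bases before the start are shown for 9 genes, 5′ to 3′ on the gene's own strand, with the CHR and CCAAT letters of either strand in capitals. They were picked as examples, not as a sample of the 36. The first 4 carry both elements. They are CCNB2 (chr15:59104996-59105145, plus strand), HMMR (chr5:163460482-163460631, plus strand), DLGAP5 (chr14:55191586-55191735, minus strand) and MKI67 (chr10:128126424-128126573, minus strand).
CCNB2: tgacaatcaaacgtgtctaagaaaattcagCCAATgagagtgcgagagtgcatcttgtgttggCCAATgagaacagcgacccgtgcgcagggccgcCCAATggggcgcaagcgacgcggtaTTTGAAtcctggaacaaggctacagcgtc
HMMR: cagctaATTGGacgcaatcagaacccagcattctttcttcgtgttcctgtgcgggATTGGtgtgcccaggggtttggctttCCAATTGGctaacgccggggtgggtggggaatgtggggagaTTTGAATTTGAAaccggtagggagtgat
DLGAP5: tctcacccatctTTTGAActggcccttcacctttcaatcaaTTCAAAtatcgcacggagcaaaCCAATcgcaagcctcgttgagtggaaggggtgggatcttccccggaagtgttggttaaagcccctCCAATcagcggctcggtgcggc
MKI67: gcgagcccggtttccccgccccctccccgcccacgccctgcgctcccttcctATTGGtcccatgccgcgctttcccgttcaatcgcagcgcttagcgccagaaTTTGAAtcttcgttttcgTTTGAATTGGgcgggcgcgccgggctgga
In HMMR the CHR core stands in tandem, and a CCAAT box overlaps its own complement. In MKI67 the CHR core nearest the start runs into a CCAAT box read on the other strand. CDC20 (chr1:43358831-43358980, plus strand) and PLK1 (chr16:23678739-23678888, plus strand) also carry both elements, and both transcripts were higher at 24 h and lower at 48 h.
CDC20: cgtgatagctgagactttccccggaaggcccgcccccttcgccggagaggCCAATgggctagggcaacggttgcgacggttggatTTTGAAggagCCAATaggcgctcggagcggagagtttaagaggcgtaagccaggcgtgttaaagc
PLK1: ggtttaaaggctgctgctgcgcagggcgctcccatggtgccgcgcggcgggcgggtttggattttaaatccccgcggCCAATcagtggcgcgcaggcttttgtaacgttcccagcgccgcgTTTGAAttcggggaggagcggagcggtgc
CCNB1 (chr5:69167000-69167149, plus strand) has CCAAT boxes without the searched CHR letters in its window. MYBL2 (chr20:43666964-43667113, plus strand) and CDC25B (chr20:3786801-3786950, plus strand) have neither set of letters in their windows. Within the mitotic genes, the median log2 fold change at 48 h was -3.11 over the 25 genes whose window had the CHR letters and -3.44 over the 11 without. Only the first listed window of each gene was used here. A search of every listed window found the letters for 28 of the 36, so a gene without them here may have them at another start. CDC25B and MYBL2 were among the 4 least reduced, but so was CKAP5, whose window holds both elements. The windows of CDC25C and CKAP2 also hold neither, and these transcripts were 27.4-fold and 5.12-fold lower. SPDYA, CDC25C and PTTG1, whose windows lack the searched CHR letters, were among the 4 most reduced of the 47.
CCNB1: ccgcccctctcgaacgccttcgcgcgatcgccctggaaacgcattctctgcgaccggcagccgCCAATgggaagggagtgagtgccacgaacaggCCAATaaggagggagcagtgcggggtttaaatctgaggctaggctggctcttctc
MYBL2: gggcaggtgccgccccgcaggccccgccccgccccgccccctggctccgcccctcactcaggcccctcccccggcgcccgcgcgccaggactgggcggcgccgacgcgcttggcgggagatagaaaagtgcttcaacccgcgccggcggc
CDC25B: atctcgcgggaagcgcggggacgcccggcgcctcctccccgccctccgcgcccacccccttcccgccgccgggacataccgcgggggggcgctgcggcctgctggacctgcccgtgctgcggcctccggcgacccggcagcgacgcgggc

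As a group, the mitotic transcripts were modestly higher in deprived cells at 24 h and far lower at 48 h. Their share of the counts in rows with a gene name was 0.748 ± 0.0121% in deprived and 0.629 ± 0.00452% in control cells at 24 h (mean ± SD, n = 3 each). The share was 0.122 ± 0.00469% in deprived and 0.713 ± 0.0126% in control cells at 48 h. At 24 h, edgeR's quasi-likelihood test with Benjamini-Hochberg adjustment over 16994 genes (threshold 0.05) called 34 of the 47 higher and 4 lower, where it called 28.8% of all tested genes higher and 26.9% lower. The median log2 fold change of the 47 was 0.32, and that of all tested genes was -0.01. The changes were small: UBE2C was the single transcript at least 2-fold higher, where 4.84% of all tested genes were. Deprived and control samples did not overlap for 40 of the 47, against 62.8% of all tested genes.

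At 48 h all 47 were called lower and none higher, where 34.9% of all tested genes were lower and 33.5% higher, and all 47 had deprived samples that did not overlap the control samples, against 70% of all tested genes. The median log2 fold change was -3.11, with -0.02 for all tested genes. The reduction reached 2-fold for 45 transcripts, where 15.3% of all tested genes did so, and 8-fold for 26, where 1.75% did. BUB3 and MYBL2 were the 2 that stayed under 2-fold. The 34 transcripts that were higher at 24 h and lower at 48 h made up most of the group, and 2.08% of all tested genes showed that pair of calls. CDC25C, SPDYA, PBK and PTTG1 were lower at both times, as were 21.3% of all tested genes. The other 9, namely BUB1, BUB1B, TTK, ESPL1, BIRC5, DLGAP5, ASPM, MKI67 and MYBL2, were not called at 24 h and were lower at 48 h. The heat map of the 12 samples shows these patterns gene by gene.

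**Figure D1:**
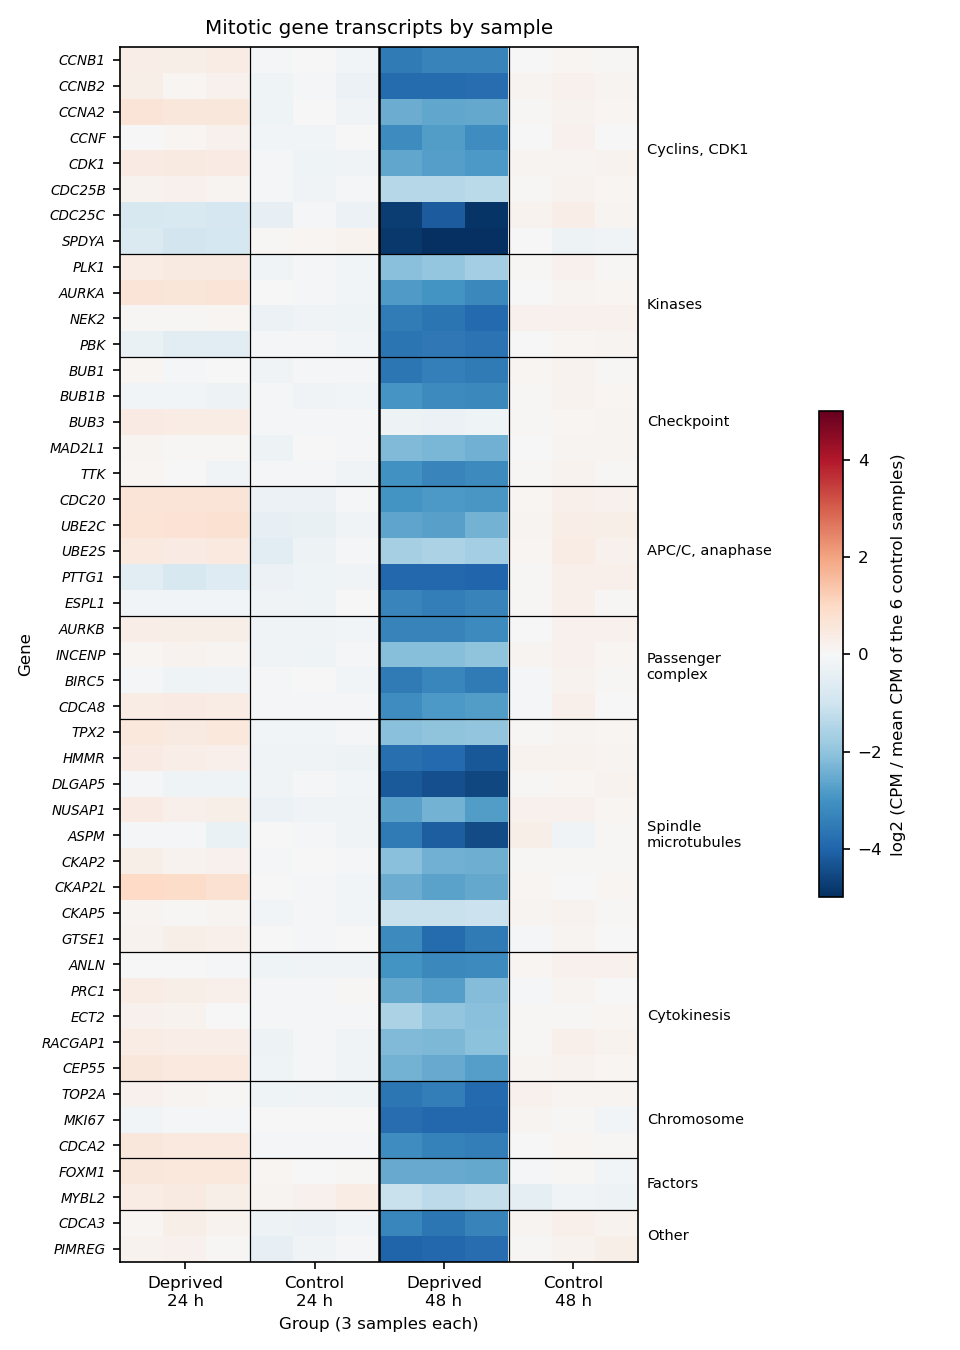
Level of each of the 47 mitotic transcripts (rows, by role) in each of the 12 samples (columns, 3 per group), as the log2 ratio of its CPM to its mean CPM in the 6 control samples. The 3 deprived samples at 48 h are below the control mean for all 47 transcripts. At 24 h the deprived samples are pale red for most rows and blue for CDC25C, SPDYA, PBK and PTTG1. Some other rows, such as BUB1B, DLGAP5, BIRC5, ASPM, ESPL1 and MKI67, also average below this control mean at 24 h. The mean includes the 48 h controls, but these named rows also average below the 24 h controls alone, without a call.

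The role groups below are read against all tested genes. Of those, 28.8% were higher and 26.9% lower at 24 h, and 34.9% were lower at 48 h. The cyclins, CDK1 and its activators changed in both directions at 24 h: of 8 transcripts, 6 were higher and 2 were lower, with a median log2 fold change of 0.35. At 48 h all 8 were lower, with a median of -3.27. CCNB1 (chr5:69167010-69178245), which encodes cyclin B1, the main partner of CDK1 in mitosis, had 279, 269.9 and 289.5 CPM in deprived cells, against 211, 220.2 and 203 CPM in control cells at 24 h. After 48 h the values were 18.9, 21.7 and 22.1 CPM in deprived cells, against 219, 239 and 233 CPM in control cells. The groups did not overlap at either time, and CCNB1 was 1.32-fold higher at 24 h (log2 0.40 ± 0.06, SE; adjusted p 5.21e-06) and 11.02-fold lower at 48 h (-3.46 ± 0.07; 2.21e-18). CCNB2, the second B-type cyclin, had a log2 fold change of 0.41 at 24 h and of -4.01 at 48 h. CCNA2, encoding cyclin A2 of S phase and mitotic entry, had 0.72 and -2.65 at the same times, and CDK1 itself 0.57 and -2.87. CCNF encodes an F-box protein that targets cell cycle proteins for degradation. Its small difference at 24 h (0.19 ± 0.07, adjusted p 0.0381) was no longer called with upper-quartile scaling (0.12, adjusted p 0.165) or with library totals (0.12, adjusted p 0.163). It was also lost without control replicate 1 (0.17), control replicate 2 (0.16), deprived replicate 2 (0.20) or deprived replicate 3 (0.14).

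The CDC25 phosphatases, which remove the inhibitory phosphates from CDK1, were called in opposite directions at 24 h. CDC25B (chr20:3786772-3806121) had 241, 251 and 237 CPM in deprived cells, against 200.4, 191 and 199.97 CPM in control cells at 24 h, and 80.5, 79.9 and 84.1 CPM in deprived cells, against 220.01, 240.5 and 231 CPM in control cells at 48 h. It was 1.23-fold higher at 24 h (adjusted p 3.5e-05) and 2.83-fold lower at 48 h (adjusted p 5.37e-15), the fourth smallest reduction of the 47. CDC25C (chr5:138285265-138338355) had 15.7, 15.9 and 15.2 CPM in deprived cells, against 20.7, 25.8 and 21.9 CPM in control cells at 24 h, and 1.01, 1.53 and 0.911 CPM in deprived cells, against 31.1, 33.96 and 29.9 CPM in control cells at 48 h. Every deprived sample was below every control sample at both times, with a log2 fold change of -0.55 ± 0.10 at 24 h (adjusted p 0.000103) and a 27.4-fold reduction at 48 h (adjusted p 6.9e-16). SPDYA (chr2:28782517-28850611) encodes Speedy A, an activator of cyclin-dependent kinases that is not a cyclin. It had 12.3, 10.7 and 11.01 CPM in deprived cells, against 21.2, 21.5 and 23.1 CPM in control cells at 24 h. SPDYA at 48 h had 0.704, 0.371 and 0.638 CPM in deprived cells, against 20.5, 17.003 and 17.7 CPM in control cells, the largest reduction of the 47 (log2 -4.99 ± 0.16, adjusted p 2.9e-15). SPDYA shares exon positions in GENCODE release 29 with PPP1CB on the same strand and TRMT61B on the opposite strand, and its estimated counts were not whole in any sample, so its level is uncertain.

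The mitotic kinases had 3 of 4 transcripts higher at 24 h and 1 lower, and all 4 lower at 48 h (median log2 fold change 0.43 and -3.41 at the 2 times). PLK1 (chr16:23677656-23690367), the kinase of centrosome maturation and mitotic entry, had 222, 233 and 232 CPM in deprived cells, against 151, 161 and 156 CPM in control cells at 24 h. The values at 48 h were 39.97, 44.2 and 51.9 CPM in deprived cells, against 175, 200.1 and 178 CPM in control cells. Its groups were apart at both times, with a 1.47-fold increase at 24 h (adjusted p 2.08e-06) and a 4.07-fold reduction at 48 h (adjusted p 2.38e-14). AURKA, the kinase of the spindle poles, changed by 0.72 on the log2 scale at 24 h and by -3.08 at 48 h. NEK2, which acts in centrosome separation, changed by 0.31 and -3.85. PBK (chr8:27809620-27838095), a kinase active in mitosis, went the other way at 24 h, with 65.6, 57.4 and 56.7 CPM in deprived cells, against 77.9, 79.9 and 74.96 CPM in control cells. PBK had 6.56, 6.87 and 6.42 CPM in deprived cells, against 82.95, 89.6 and 91.8 CPM in control cells at 48 h. All its deprived samples were below all its controls, with log2 fold changes of -0.37 ± 0.06 at 24 h (adjusted p 4.59e-05) and -3.73 ± 0.08 at 48 h (adjusted p 6.04e-18).

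The spindle assembly checkpoint had the smallest median log2 fold change of the role groups at 24 h, 0.13. Of its 5 transcripts 2 (40%) were higher, against 28.8% of all tested genes, and 3 were not called. At 48 h all 5 were lower, with a median of -3.22. BUB3 (chr10:123154277-123170467), a WD-repeat protein that brings BUB1 and BUBR1 to kinetochores, was the exception in size. It had 272, 267 and 267 CPM in deprived cells, against 195, 192 and 192 CPM in control cells at 24 h, and 171, 168 and 174 CPM in deprived cells, against 211, 217 and 224 CPM in control cells at 48 h. Its 1.39-fold increase at 24 h (adjusted p 3.11e-08) was followed by a 1.27-fold reduction at 48 h (log2 -0.34 ± 0.04, adjusted p 1.43e-06), the smallest of the 47. The checkpoint kinases BUB1 and TTK, and BUB1B, which encodes BUBR1, had log2 values of 0.13, 0.09 and -0.05 at 24 h without a call. At 48 h they were lower by 12.4-fold, 9.56-fold and 9.33-fold. BUB1 at 24 h was close to the threshold (adjusted p 0.0562) and was called higher when the fit held the 24 h groups alone (0.12, adjusted p 0.0351), and without deprived replicate 2 (0.16), or without control replicate 2 or deprived replicate 1 of 48 h (0.13 each). MAD2L1, encoding the checkpoint protein MAD2, was called higher at 24 h (0.19 ± 0.06, adjusted p 0.0188), but not with upper-quartile scaling (0.12, adjusted p 0.127) or library totals (0.11, adjusted p 0.142), nor without control replicate 1 (0.12) or deprived replicate 1 (0.17). At 48 h it was 5.26-fold lower.

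The partners of the anaphase-promoting complex, with securin and separase, had the largest median log2 fold change of the role groups at 24 h. For these 5 transcripts it was 0.74 at 24 h and -3.11 at 48 h, with 3 higher and 1 lower at 24 h and all 5 lower at 48 h. CDC20 (chr1:43358955-43363203), the activator that starts anaphase, had 377, 367 and 376 CPM in deprived cells, against 195, 195 and 226 CPM in control cells at 24 h. After 48 h CDC20 had 29.98, 32.7 and 31.5 CPM in deprived cells, against 255, 281 and 274 CPM in control cells. Its groups did not overlap at either time, and it was 1.82-fold higher at 24 h (adjusted p 4.11e-10) and 8.61-fold lower at 48 h (adjusted p 6.11e-18). UBE2C (chr20:45812576-45816957), the ubiquitin-conjugating enzyme that starts the chains on the complex's substrates, had 149, 149.97 and 154 CPM in deprived cells, against 68.4, 70.7 and 80.8 CPM in control cells at 24 h. UBE2C had 14.7, 14.1 and 17.7 CPM in deprived cells, against 102, 116 and 114 CPM in control cells at 48 h. Its 2.06-fold increase at 24 h was the largest of the 47 (log2 1.04 ± 0.07, adjusted p 5.45e-10), and its reduction at 48 h was 7.15-fold (adjusted p 6.06e-16). UBE2S (chr19:55399745-55407777), the enzyme that extends those chains, had 468, 444 and 463 CPM in deprived cells, against 233, 278 and 313 CPM in control cells at 24 h. At 48 h UBE2S had 106, 111 and 101 CPM in deprived cells, against 356, 431 and 382 CPM in control cells. Its control samples were the more scattered at both times, yet all lay below the deprived samples at 24 h and above them at 48 h, with log2 fold changes of 0.74 ± 0.08 (adjusted p 3.84e-07) and -1.88 ± 0.09 (adjusted p 4.67e-13).

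Securin and separase, the inhibitor and the protease of sister separation, are encoded by PTTG1, called lower at 24 h, and ESPL1, not called there. PTTG1 (chr5:160421822-160428744), encoding securin, had 65.3, 54.9 and 61.3 CPM in deprived cells, against 76.5, 82.6 and 83.4 CPM in control cells at 24 h, and 6.16, 6.22 and 6.15 CPM in deprived cells, against 99.8, 112 and 114 CPM in control cells at 48 h. It was lower in every deprived sample, with log2 fold changes of -0.42 ± 0.07 at 24 h (adjusted p 3.12e-05) and -4.14 ± 0.09 at 48 h, a 17.6-fold reduction (adjusted p 5.4e-18). ESPL1, encoding separase, averaged 80.2 ± 0.0832 CPM in deprived cells and 80.3 ± 4.96 CPM in control cells at 24 h (SD, n = 3), with no call (adjusted p 0.981). At 48 h it was 11.2-fold lower. The plots of 8 transcripts show the rise and fall of CDC20 and UBE2C beside the fall of PTTG1 at both times.

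**Figure D2:**
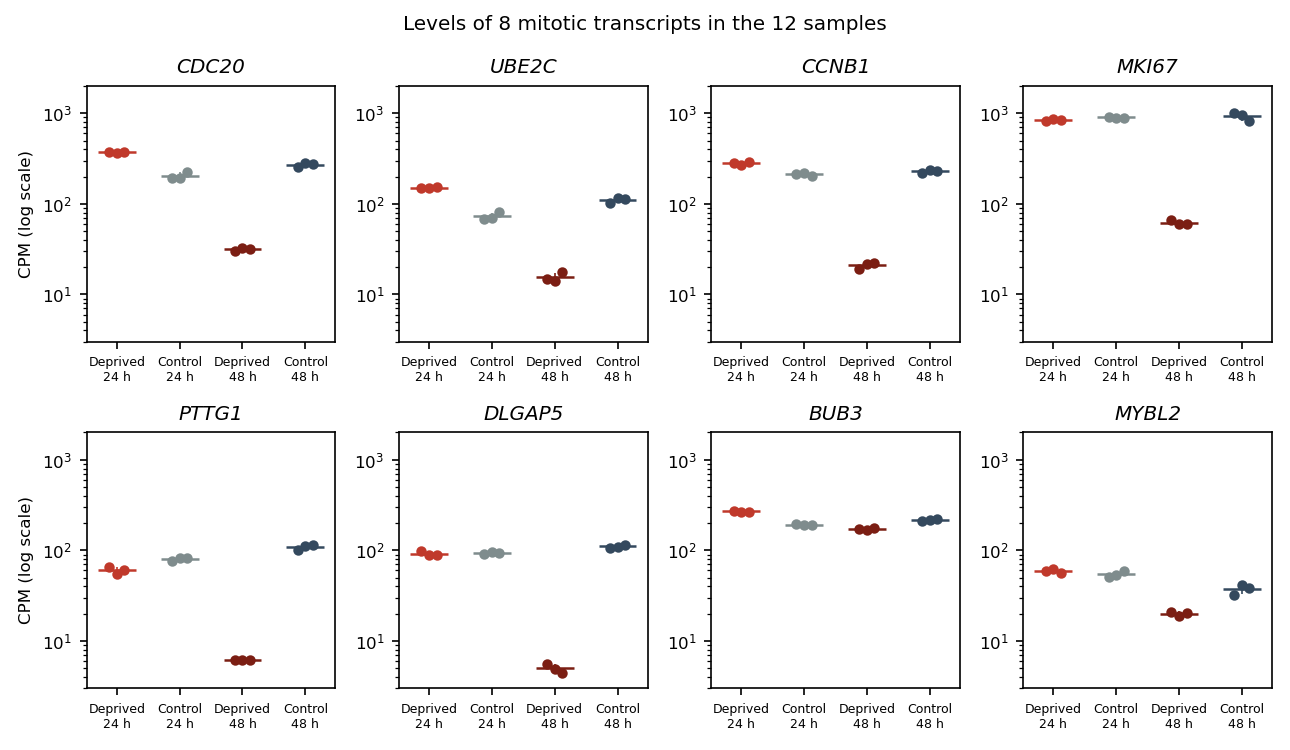
CPM (log axis) of 8 mitotic transcripts in the 12 samples; points are samples, lines are group means and vertical bars are SD (n = 3). CDC20, UBE2C and CCNB1 are higher in deprived than control cells at 24 h and lower at 48 h, PTTG1 is lower at both times, MKI67 and DLGAP5 differ clearly at 48 h, and BUB3 and MYBL2 show the smallest differences at 48 h.

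The chromosomal passenger complex corrects wrong attachments between microtubules and kinetochores. Of its 4 transcripts 3 were higher at 24 h and all 4 were lower at 48 h, with medians of 0.38 and -3.22 on the log2 scale. AURKB, its kinase, changed by 0.48 at 24 h and -3.44 at 48 h, INCENP, its scaffold, by 0.30 and -2.22, and CDCA8, encoding borealin, by 0.46 and -2.99. BIRC5 (chr17:78214186-78225636), encoding survivin, had 169, 155 and 161 CPM in deprived cells, against 169.6, 181 and 165 CPM in control cells at 24 h. BIRC5 at 48 h had 15.7, 18.8 and 15.7 CPM in deprived cells, against 175, 205 and 186 CPM in control cells. The groups overlapped at 24 h (log2 -0.09 ± 0.07, adjusted p 0.279), where upper-quartile scaling and library totals gave a call of lower (-0.16 each, adjusted p 0.0432 and 0.032), and were apart at 48 h with an 11.3-fold reduction (adjusted p 1.27e-17).

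The spindle microtubule proteins were the largest role group, with 7 of 9 transcripts higher at 24 h (median 0.29) and all 9 lower at 48 h (median -2.80). CKAP2L (chr2:112736607-112764677), a spindle protein, had 77.1, 73.9 and 66.2 CPM in deprived cells, against 39.1, 36.2 and 35.8 CPM in control cells at 24 h. At 48 h CKAP2L had 6.999, 6.03 and 6.51 CPM in deprived cells, against 41.7, 39.1 and 41.3 CPM in control cells. Its deprived samples were well above the controls at 24 h (1.95-fold, adjusted p 5.89e-10) and well below them at 48 h (6.24-fold lower, adjusted p 1.91e-15). CKAP5 (chr11:46743048-46846308), a microtubule polymerase that also serves cells outside mitosis, had 379, 363 and 382 CPM in deprived cells, against 316, 326 and 314 CPM in control cells at 24 h. CKAP5 had 162, 163 and 167 CPM in deprived cells, against 385, 389 and 362 CPM in control cells at 48 h. Its changes were small at both times, 1.18-fold higher (adjusted p 0.000235) and 2.31-fold lower (adjusted p 3.65e-14), with no overlap of the groups. DLGAP5 (chr14:55148112-55191678), encoding the kinetochore-fibre protein HURP, had 97.3, 88.2 and 88.9 CPM in deprived cells, against 91.4, 96.99 and 93.5 CPM in control cells at 24 h, and 5.63, 4.87 and 4.42 CPM in deprived cells, against 106, 110.02 and 116 CPM in control cells at 48 h. Its groups overlapped at 24 h (log2 -0.04 ± 0.06, adjusted p 0.605), and at 48 h it was 22.2-fold lower (adjusted p 1.26e-18).

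Among the other spindle genes, TPX2, the activator of Aurora A on the spindle, was 1.55-fold higher at 24 h and 4.44-fold lower at 48 h. HMMR, a microtubule-binding protein of spindle poles, was 1.45-fold higher and then 17.5-fold lower. NUSAP1, which stabilises spindle microtubules, was 1.43-fold higher and then 6.95-fold lower. CKAP2, a microtubule-associated protein, was 1.22-fold higher and then 5.12-fold lower. GTSE1, which binds microtubules and p53, was 1.21-fold higher and then 11.5-fold lower. ASPM, a spindle pole protein known for its loss in microcephaly, had a log2 value of -0.08 ± 0.12 at 24 h without a call (adjusted p 0.586) and was 16.6-fold lower at 48 h. Its standard error at 24 h was the largest of this role group, and it had 139, 100.5 and 119 CPM in the control cells at 48 h.

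The central spindle and cytokinesis genes all rose at 24 h (5 of 5, median 0.36) and all fell at 48 h (5 of 5, median -2.51). ANLN (chr7:36389806-36453791), encoding anillin, the scaffold of the contractile ring, had 209, 207 and 193 CPM in deprived cells, against 178, 182 and 182 CPM in control cells at 24 h. At 48 h ANLN had 26.4, 22.3 and 23.1 CPM in deprived cells, against 225, 239.96 and 239 CPM in control cells. The groups were apart at both times, by a little at 24 h (1.12-fold, adjusted p 0.0159) and by 9.79-fold at 48 h (adjusted p 2.98e-18). The small rises of ANLN and of ECT2, the exchange factor that activates RhoA at the cell equator (0.23 ± 0.08, adjusted p 0.0245), were lost with upper-quartile scaling (adjusted p 0.145 and 0.123) and library totals (0.185 and 0.168). Without control replicate 1, deprived replicate 1 or deprived replicate 2, ANLN had 0.16, 0.15 and 0.15, and ECT2 had 0.23, 0.20 and 0.21, with no call. ECT2 also lost its call without control replicate 3 (0.22). RACGAP1, a part of centralspindlin, was 1.43-fold higher at 24 h and 5.07-fold lower at 48 h, and CEP55, which recruits the abscission machinery, was 1.59-fold higher and 6.44-fold lower. PRC1, the crosslinker of antiparallel microtubules, was 1.28-fold higher and 5.69-fold lower, and ECT2 was 3.86-fold lower at 48 h.

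Of 3 genes of chromosome structure and surface, 2 were higher at 24 h and all 3 were lower at 48 h, with medians of 0.32 and -3.80. MKI67 (chr10:128096659-128126385) encodes Ki-67, the coat protein of mitotic chromosomes used as a proliferation marker. It had 829.5, 864 and 846 CPM in deprived cells, against 913, 892 and 896 CPM in control cells at 24 h. MKI67 at 48 h had 65.7, 59.8 and 59.9 CPM in deprived cells, against 1005, 953 and 819.6 CPM in control cells. Every deprived sample was below every control sample at 24 h, but the difference was not called (-0.09 ± 0.06, adjusted p 0.229), except with upper-quartile scaling (-0.16, adjusted p 0.0355), library totals (-0.16, adjusted p 0.0394) or only the compared groups (-0.10, adjusted p 0.0403). At 48 h the reduction was 14.98-fold (adjusted p 1.14e-18). TOP2A, the topoisomerase that untangles sister chromatids, averaged 356 ± 16.6 CPM in deprived cells and 286 ± 4.36 CPM in control cells at 24 h, and 26.2 ± 4.13 CPM in deprived cells and 364 ± 12.5 CPM in control cells at 48 h (SD, n = 3 each). It was called higher at 24 h (adjusted p 0.000622) and 13.9-fold lower at 48 h. CDCA2, a targeting subunit of protein phosphatase 1 on chromosomes, was 1.49-fold higher at 24 h and 10.4-fold lower at 48 h.

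Of the transcription factors that switch on mitotic genes, FOXM1 was called higher at 24 h, MYBL2 was not called there, and both were lower at 48 h. FOXM1 (chr12:2857681-2877155) had 128, 128 and 126 CPM in deprived cells, against 93.7, 85.9 and 92.4 CPM in control cells at 24 h. At 48 h FOXM1 had 15.3, 15.4 and 14.8 CPM in deprived cells, against 83.3, 90.5 and 80.1 CPM in control cells. Its groups were apart both times, with a 1.40-fold increase (adjusted p 3.56e-07) and a 5.58-fold reduction (adjusted p 8.47e-17). MYBL2 (chr20:43667019-43716496), encoding B-MYB, is itself transcribed earlier in the cycle than its mitotic targets. It had 58.6, 62.7 and 56.9 CPM in deprived cells, against 50.5, 52.9 and 59.7 CPM in control cells at 24 h, and 21.1, 18.7 and 20.4 CPM in deprived cells, against 32.5, 41.1 and 38.5 CPM in control cells at 48 h. The groups overlapped at 24 h (adjusted p 0.188) and were apart at 48 h, where MYBL2 was 1.86-fold lower (log2 -0.90 ± 0.09, adjusted p 3.22e-08).

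CDCA3 (chr12:6844793-6852066), linked to the ubiquitin ligase that removes the CDK1 inhibitor WEE1, and PIMREG, a nuclear protein of dividing cells, complete the group. CDCA3 had 44.7, 51.3 and 47.9 CPM in deprived cells, against 34.9, 34.6 and 37.7 CPM in control cells at 24 h, and 4.31, 3.43 and 4.19 CPM in deprived cells, against 46.4, 50.2 and 47.4 CPM in control cells at 48 h. The samples did not overlap, with a log2 fold change of 0.42 ± 0.07 at 24 h (adjusted p 4.22e-05) and a 12.03-fold reduction at 48 h (adjusted p 7.73e-17). PIMREG was 1.28-fold higher at 24 h and 16.9-fold lower at 48 h.

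**Figure D3:**
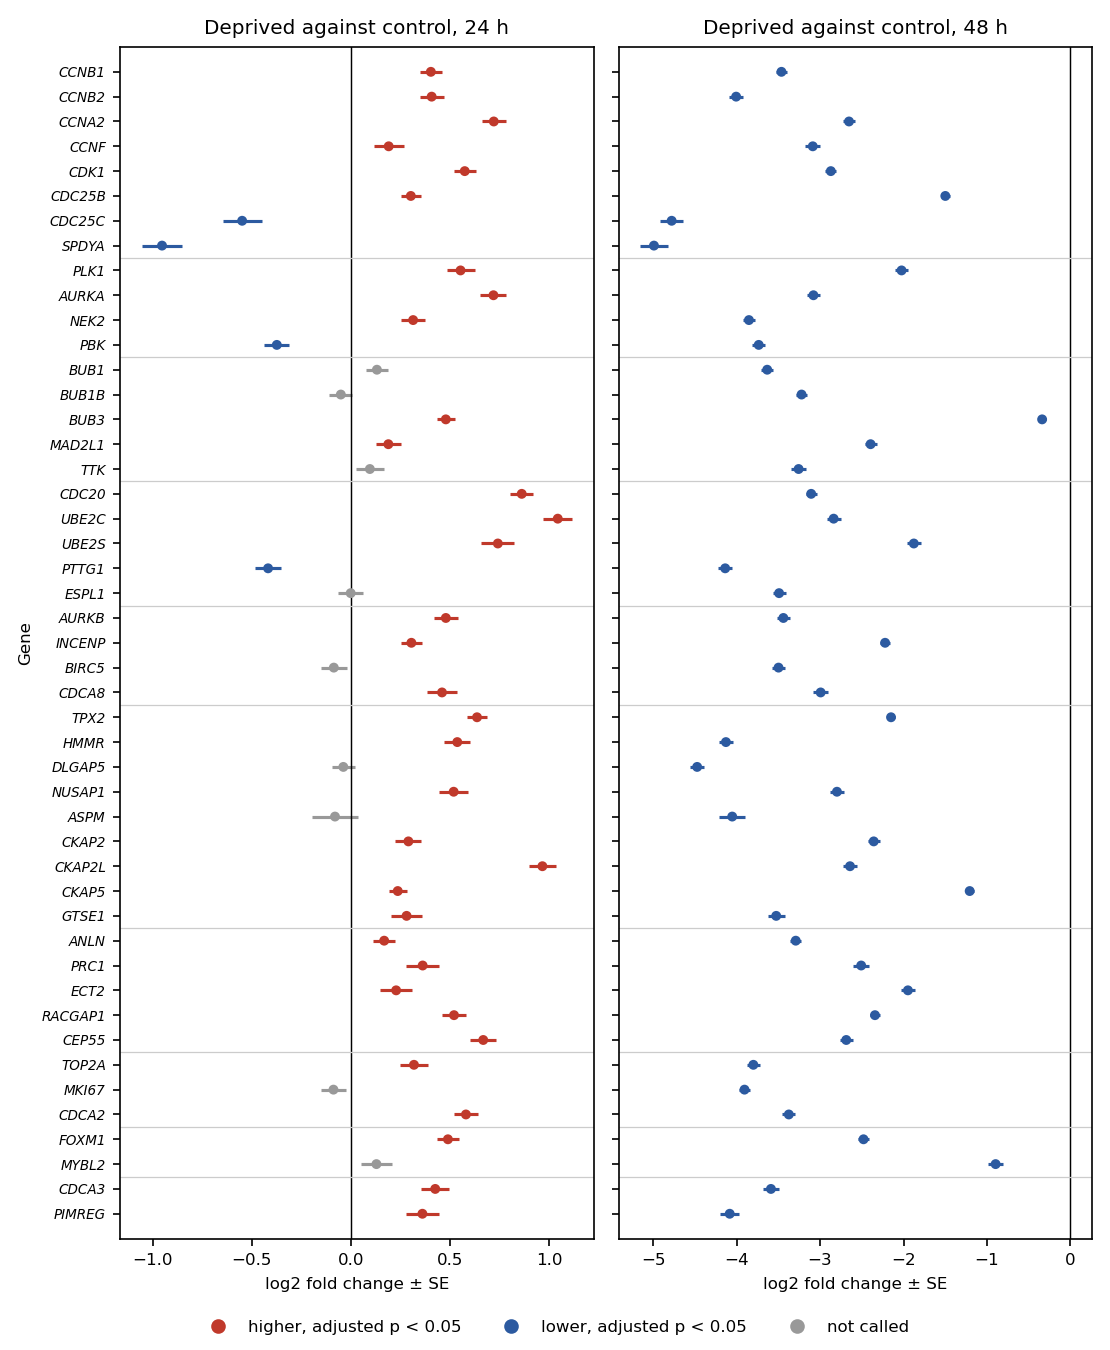
Log2 fold change of deprived against control cells, with its standard error from edgeR's fit, for each of the 47 transcripts at 24 h (left) and 48 h (right); the 2 panels have different scales. At 24 h the values run from -0.95 (SPDYA) to 1.04 (UBE2C), and at 48 h from -4.99 (SPDYA) to -0.34 (BUB3).

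The effect of deprivation differed between the times for all 47 transcripts when the difference itself was tested: the interaction was lower for 47 of 47, where 19.2% of all tested genes were, with a median of -3.45 on the log2 scale. It reached 2-fold for 46 of them, against 6.14% of all tested genes. It ran from -4.66 ± 0.11 for HMMR (adjusted p 1.37e-16) to -0.82 ± 0.06 for BUB3 (adjusted p 6.86e-09). In deprived cells at 48 h against 24 h all 47 were lower (21.8% of all tested genes), with a median of -3.23. In control cells at 48 h against 24 h, 31 were higher, 1 was lower and 15 were not called, where 12.7% and 10.4% of all tested genes were higher and lower, and the median of the 47 was 0.24. For 36 of the 47 the control samples of the 2 times did not overlap, against 38.2% of all tested genes. With library totals in place of TMM factors, the split of calls over all genes in the control cells was 1697 higher to 2580 lower, against 2151 to 1760, and 28 of the 47 were called higher. UBE2C rose most in the control cells (0.59 ± 0.07, adjusted p 1.2e-05), and MYBL2 was the 1 that fell (-0.54 ± 0.08, adjusted p 0.000116). These contrasts share samples with the comparisons of deprived and control cells.

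Compared per length, as TPM (counts divided by gene length and scaled to a common sum), CDC20 had the highest level of the 47 in deprived cells at 24 h (437 ± 3.56 TPM, SD, n = 3) and in control cells at 24 h (248 ± 17.4 TPM) and 48 h (308 ± 6.58 TPM). In deprived cells at 48 h the highest was UBE2S (80.4 ± 4.94 TPM), followed by CKAP5 (44.3 ± 1.56 TPM). CDC20 stood at 36.9 ± 0.615 TPM there. SPDYA was the lowest in deprived cells, with 0.625 ± 0.217 TPM at 48 h and 12.5 ± 0.903 TPM at 24 h. The median level of the 47 was 76.0 TPM in deprived and 63.9 TPM in control cells at 24 h, and 9.36 TPM in deprived and 68.0 TPM in control cells at 48 h. Across the 47 genes, which are not independent replicates, the Spearman correlation of the log2 fold changes at 24 h and 48 h was 0.445, and that of the control level at 48 h with the fold change at 48 h was 0.0623.

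Other genes of mitotic control, from lists set beside the 47, are read against all genes tested, of which 28.8% were higher and 26.9% lower at 24 h, and 33.5% higher and 34.9% lower at 48 h. Of 17 further genes of the mitotic entry switch, 11 (64.7%) were higher and 1 (5.88%) lower at 24 h, and 7 were higher and 7 lower at 48 h (41.2% each, near the shares over all genes), with medians of 0.26 and 0.15. WEE1, the kinase that inhibits CDK1, averaged 58.99 ± 3.92 CPM in deprived cells and 37.3 ± 0.939 CPM in control cells at 24 h, and 21.3 ± 2.87 CPM in deprived cells and 54.1 ± 4.19 CPM in control cells at 48 h, and was higher at the earlier and lower at the later time (adjusted p 1.31e-06 and 5.33e-11). BORA, which activates Aurora A and PLK1, likewise changed by 0.84 ± 0.08 and -2.08 ± 0.10. CKS1B, a CDK-binding protein, changed by 1.02 ± 0.06 at 24 h and 0.16 ± 0.06 at 48 h. The value at 48 h was not called with upper-quartile scaling (0.10, adjusted p 0.115), without control replicate 1 (0.10) or without deprived replicate 2 (0.15). Its paralog CKS2 had -0.09 ± 0.07 at 24 h without a call (adjusted p 0.285) and fell by 2.51 at 48 h.

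A list of 16 genes of the anaphase-promoting complex, holding its subunits, the coactivator gene FZR1 and the inhibitor gene FBXO5, had 9 (56.2%) higher and 4 (25%) lower at 24 h. At 48 h it had 6 (37.5%) higher and 5 (31.2%) lower, near the 33.5% and 34.9% of all genes tested (median 0.24 at 24 h and 0.03 at 48 h). FBXO5, encoding the inhibitor EMI1, averaged 51.4 ± 3.30 CPM in deprived cells and 28.9 ± 3.05 CPM in control cells at 24 h, and 13.9 ± 1.49 CPM in deprived cells and 28.9 ± 2.30 CPM in control cells at 48 h, changing by 0.83 and -1.06 on the log2 scale (adjusted p 1.45e-07 and 8.08e-09). ANAPC13, a small subunit, was higher at both times (0.58 and 1.03). Of 25 centrosome and spindle pole genes, 12 (48%) were higher and 1 (4%) lower at 24 h, against 28.8% and 26.9% of all genes tested, and 2 (8%) were higher and 15 (60%) lower at 48 h, against 33.5% and 34.9% (median 0.16 and -0.36). SPAG5 and TACC3, spindle proteins of dividing cells, changed by -2.94 ± 0.06 and -2.49 ± 0.06 at 48 h. STIL, a centriole duplication factor, changed by 0.76 ± 0.07 at 24 h and -1.86 ± 0.07 at 48 h. TUBGCP3, a subunit of the gamma-tubulin ring, was higher at both times (0.69 and 0.25).

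Among 19 genes of MuvB, the E2F factors and the pocket proteins, 10 (52.6%) were higher and 3 (15.8%) lower at 24 h, against 28.8% and 26.9% of all genes tested. At 48 h 9 (47.4%) were higher and 6 (31.6%) lower, against 33.5% and 34.9% (median 0.14 at 24 h and 0.15 at 48 h). E2F7 and E2F8, repressor E2Fs, changed by 1.38 ± 0.07 and 0.70 ± 0.11 at 24 h, and by 0.07 ± 0.08 (not called, adjusted p 0.417) and -1.24 ± 0.13 at 48 h. MYBL1, the A-MYB gene, had 0.14 without a call at 24 h and fell by 1.40 at 48 h. LIN9, a MuvB subunit, had 0.02 without a call at 24 h and averaged 4.87 ± 0.280 CPM in deprived cells and 6.74 ± 0.877 CPM in control cells at 48 h (log2 -0.47 ± 0.13, adjusted p 0.00303). TFDP2, a dimerisation partner of E2Fs, was lower at both times (-0.83 and -1.06).

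Of 15 genes of p53, the CDK inhibitors and G2 arrest, 14 were tested (WEE2 was not), and 8 (57.1%) were higher and 1 (7.14%) lower at 24 h, against 28.8% and 26.9% of all genes tested. At 48 h 7 (50%) were higher and 5 (35.7%) lower, against 33.5% and 34.9% (median 0.22 at 24 h and 0.29 at 48 h). CDKN1A, encoding the CDK inhibitor p21, had 492, 514 and 501 CPM in deprived cells, against 196, 198 and 209 CPM in control cells at 24 h. At 48 h CDKN1A had 512, 599 and 626 CPM in deprived cells, against 133, 158 and 142 CPM in control cells. Its samples did not overlap at either time, with log2 fold changes of 1.32 ± 0.07 (adjusted p 1.22e-11) and 2.00 ± 0.07 (adjusted p 1.03e-14). GADD45A and GADD45B, stress genes, rose by 1.84 and 1.48 at 24 h and by 1.90 and 1.72 at 48 h. CDKN1C, encoding p57, fell by 1.09 at 24 h and by 2.17 at 48 h. Of 25 G1/S and DNA replication genes, 8 (32%) were higher and 12 (48%) lower at 24 h, and 7 (28%) higher and 12 (48%) lower at 48 h (median -0.11 and -0.22), the higher shares being near those over all genes. TK1, thymidine kinase, fell by 0.89 at 24 h and by 2.57 at 48 h, TYMS, thymidylate synthase, had -0.03 without a call at 24 h and fell by 1.70 at 48 h, and CDC6, a licensing factor, rose at both times (1.26 and 0.99). The lists were made with earlier results of these samples known, so their counts are descriptions.

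**Figure D4:**
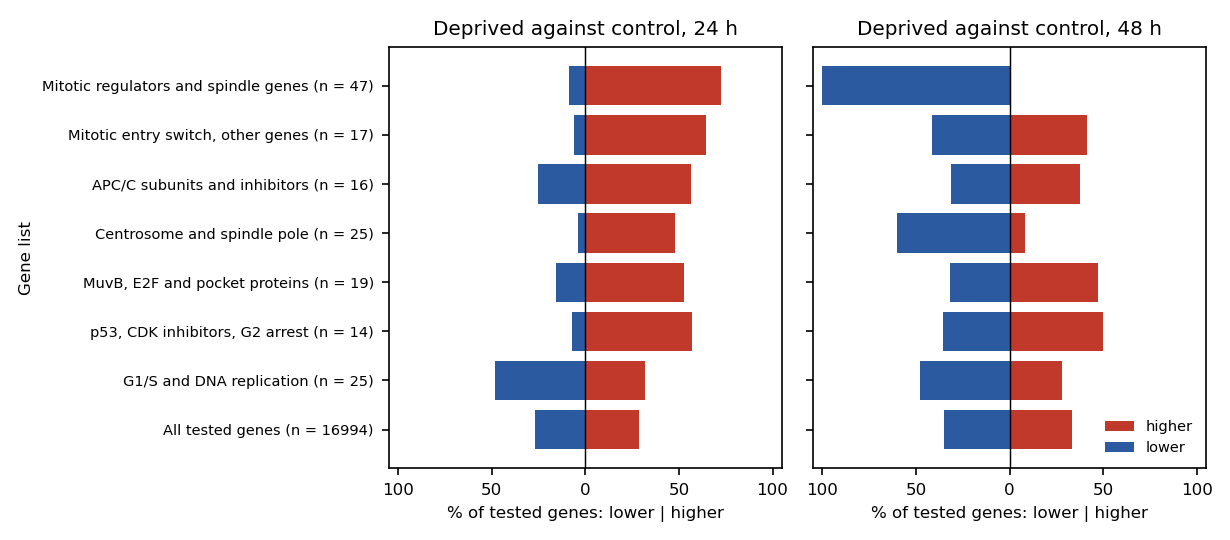
Share of tested genes called higher (right of 0) or lower (left of 0) in deprived against control cells, for the 47 mitotic genes, 6 further lists and all 16994 tested genes, at 24 h (left panel) and 48 h (right panel). At 48 h the bar of the mitotic genes is wholly on the lower side, while each other list has genes on both sides.

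An exon of 16 of the 47 genes overlaps another gene in GENCODE release 29 on GRCh38, in 14 cases on the opposite strand, among them PRC1 with PRC1-AS1, HMMR with HMMR-AS1 and PLK1 with ERN2. No source used here says whether the libraries kept strand, and reads of such partners cannot be told apart. Estimated counts were whole in every sample for 22 of the 47, and in no sample for 7, namely CCNA2, SPDYA, PLK1, NUSAP1, GTSE1, PRC1 and FOXM1, and values that are not whole arise where an estimation divides reads between genes.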

How the data were processed

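Total RNA of 12 HCT116 samples was sequenced after TRIzol extraction and DNase treatment, per the labels' protocols. The deposited table gives the authors' estimated counts per gene, without normalization, and a gene length. The submitters' processing notes name fastp, HISAT, RSEM and GRCh38, without versions or roles, and no source used here gives the annotation release. A TPM table is named in the labels, but column totals differed between samples, so the values were read as estimated counts. Groups and replicate numbers came from the sample titles.

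The 316 rows without a gene name, holding 0.748 to 1.65% of counts, were left out. Counts were rounded and genes kept where filterByExpr of edgeR passed them (at least 10 counts, 15 in total), which left 16994 genes, all 47 mitotic genes among them, so that no member was lost to low counts. All 12 samples entered 1 fit of 4 group means (edgeR 4.0.16, R 4.3.3, TMM factors, quasi-likelihood F test, no replicate block). P-values were adjusted by Benjamini-Hochberg over all tested genes with a threshold of 0.05. A standard error is the size of the log2 fold change divided by the root of F. The biological coefficient of variation was 6.4%, and replicates differed by more than counting noise (chi-square per degree of freedom 2.99 to 8.14). The highest value was between deprived replicates 1 and 3 of 48 h, and the lowest between deprived replicates 2 and 3 of 48 h. CPM use TMM-scaled totals. TPM were computed from the counts and the deposited length.

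The members and lists, and the rule for naming genes, were chosen with earlier results of these data known. Values in every sample are given for the 4 members with the largest and the 4 with the smallest log2 fold change at each time, the member of each role group with the highest mean CPM in control cells, and members called against the majority. Of the lists, the rule took the 2 called genes of largest change at each time and 6 fixed genes. Promoter windows came from RefSeq, the first listed per gene, and coordinates of genes from GENCODE release 29, which is not stated to be the authors' release.

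Alternatives were RLE and upper-quartile scaling, library totals, DESeq2 1.42.0, no filter, a floor of 5 CPM on the mean, a replicate block, a fit of the compared groups alone, and leaving out each sample.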

Additional observations from a re-analysis of the deposited data

Results flagged for a closer look

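The effect of deprivation, deprived against control cells, differed between 48 h and 24 h for the genes below by edgeR's interaction test over 16994 genes (adjusted p under the threshold of 0.05). Each value is the log2 fold change at 48 h minus that at 24 h, and a negative value means that the transcript was lower relative to control at 48 h than at 24 h. Single samples were not checked for outlying values, as each group holds 3. For the cyclins, CDK1 and its activators it was -3.87 for CCNB1, -4.41 for CCNB2, -3.37 for CCNA2, -3.28 for CCNF, -3.44 for CDK1, -1.80 for CDC25B, -4.23 for CDC25C and -4.04 for SPDYA. For the mitotic kinases it was -2.58 for PLK1, -3.80 for AURKA, -4.17 for NEK2 and -3.36 for PBK. For the spindle assembly checkpoint it was -3.76 for BUB1, -3.17 for BUB1B, -0.82 for BUB3, -2.58 for MAD2L1 and -3.35 for TTK. For the anaphase-promoting complex partners, securin and separase it was -3.97 for CDC20, -3.88 for UBE2C, -2.62 for UBE2S, -3.72 for PTTG1 and -3.49 for ESPL1. For the chromosomal passenger complex it was -3.92 for AURKB, -2.53 for INCENP, -3.41 for BIRC5 and -3.45 for CDCA8. For the spindle microtubule proteins it was -2.79 for TPX2, -4.66 for HMMR, -4.43 for DLGAP5, -3.31 for NUSAP1, -3.97 for ASPM, -2.65 for CKAP2, -3.61 for CKAP2L, -1.44 for CKAP5 and -3.81 for GTSE1. For the central spindle and cytokinesis genes it was -3.46 for ANLN, -2.87 for PRC1, -2.17 for ECT2, -2.86 for RACGAP1 and -3.35 for CEP55. For the chromosome genes it was -4.12 for TOP2A, -3.82 for MKI67 and -3.95 for CDCA2. For the transcription factors it was -2.97 for FOXM1 and -1.02 for MYBL2. For the remaining members it was -4.01 for CDCA3 and -4.44 for PIMREG.

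Among the named genes of the other lists, the difference was below 0 as follows: -2.92 for BORA, -2.91 for SPAG5, -2.62 for STIL, -2.61 for TACC3, -2.42 for CKS2, -2.01 for WEE1, -1.94 for E2F8, -1.89 for FBXO5, -1.68 for TK1, -1.67 for TYMS, -1.55 for MYBL1, -1.31 for E2F7, -1.08 for CDKN1C, -0.86 for CKS1B, -0.49 for LIN9, -0.44 for TUBGCP3, -0.36 for COL1A1, -0.27 for CDC6 and -0.23 for TFDP2. It was above 0 in the others, with 0.46 for ANAPC13, 0.68 for CDKN1A and 0.24 for CLDN4. CDKN1A and ANAPC13 were higher in deprived cells at both times and CLDN4 was lower at both times. CDC6, LIN9, TFDP2, CLDN4 and COL1A1 each lost this call under at least 1 alternative. These lists were drawn up with results of these samples in view.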

How the results depend on the processing

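The 47 reductions at 48 h, the 47 lower interactions and the 47 reductions of deprived cells between the times kept their calls under all 20 alternatives, and no called value of a mitotic gene changed sign. The fit of only the compared groups gives no interaction. At 24 h the count called higher was 30 to 35 and the count called lower 4 to 6, and 30 of the 34 were higher under every alternative. The calls that changed at 24 h were those of CCNF, MAD2L1, ANLN and ECT2, which were lost, of BUB1, which was gained as higher, and of BIRC5 and MKI67, which were gained as lower. In control cells over time, 8 genes changed calls. In 9 pairs of a gene and an alternative, a value that was not called in either fit changed sign.

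The median log2 fold change of the 47 moved by more than the spread between samples in these cases. At 24 h it was 0.25 with upper-quartile scaling and 0.24 with library totals. At 48 h it was -3.16 with upper-quartile scaling and -3.14 with genes of at least 5 CPM. For the interaction it was -3.40 with library totals, and for control cells over time 0.19 with library totals. Leaving out each sample in turn gave 30 to 35 genes higher at 24 h, medians of 0.31 to 0.35 at 24 h and -3.19 to -3.07 at 48 h, an interaction median of -3.52 to -3.42, and, in control cells over time, 26 to 32 genes higher, 1 to 2 lower and a median of 0.20 to 0.26. The lowest of these counts came without control 24h replicate 1. SPDYA was the second lower gene in control cells over time, where the count was 2 with library totals, with the replicate block and with only the compared groups. The cause of these shifts was not tested. Scaling moved the median of all genes by under 0.1 on the log2 scale.

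Same-numbered samples showed little shared deviation: the correlation of their deviations ran from -0.0412 to 0.126, with 1 of 18 pairs over 0.1. For samples with different numbers it ran from -0.116 to 0.0748. No strong pairing by number was seen, and a weak pairing cannot be told from none in this way. With the replicate number as a block, BUB1 was called higher at 24 h (0.13, adjusted p 0.0463), 35 genes were higher and 4 lower at 24 h, and 47 were lower at 48 h. Of 28 named genes of the other lists, CKS2 and TACC3 changed calls at 24 h and CKS1B at 48 h. The lowest counts behind a member were those of SPDYA in deprived cells at 48 h, down to 7.72 in a sample, and its fold change there is the least precise of the 47.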

Other observations

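Genes outside the 47 that carry the same promoter letters can be set beside them. Only the 47 were taken out, so other genes of mitosis may remain among those counted here. Of 475 tested protein-coding genes outside the 47 with both the CHR letters and CCAAT in their RefSeq window, 112 (23.6%) were at least 2-fold lower in deprived than in control cells at 48 h, against 13.5% of the 10237 without both. At least 8-fold reductions were seen in 5.68% of those with both and 1.39% of those without. Their median log2 fold change at 48 h was -0.19 with both and 0.02 without, and at 24 h 0.03 and 0.01. These are descriptions with no test, and the base composition of the windows was not matched.

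Within the mitotic group the median log2 fold change at 24 h was 0.30 both with and without the CHR letters in the first listed window. When every listed RefSeq window of a gene was searched, the CHR letters were found for 28 of the 36 (77.8%), against 17.5% of protein-coding genes, and both elements for 26 (72.2%), against 7.28%.

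The named genes of the other lists, cell type markers aside, fell into several patterns. CKS2, SPAG5, TACC3, TYMS, MYBL1 and LIN9 were not called at 24 h and were lower at 48 h. BORA, STIL, WEE1, FBXO5 and E2F8 were higher at 24 h and lower at 48 h. That pair of calls was made for 34 of the 47 mitotic genes and 2.08% of all tested genes. CKS1B, ANAPC13, TUBGCP3, CDC6, CDKN1A, GADD45A and GADD45B were higher at both times, and TFDP2, TK1 and CDKN1C were lower at both. E2F7 was higher at 24 h and not called at 48 h.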
